A study of Mus musculus with 2 samples.

Results

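Brain endothelial cells line the capillaries of the brain and form the blood-brain barrier. Tight junctions seal the space between neighbouring cells, uptake transporters carry glucose and other solutes inward, and efflux pumps return drugs and waste to the blood. Endothelial cells also carry receptors for vascular growth factors and adhesion proteins of the vessel wall. The account below covers 10 genes used as marks of these cells: Cldn5, Pecam1, Flt1, Slco1a4, Ly6c1, Itm2a, Bsg, Pltp, Slc2a1 and Abcb1a. They were taken by gene symbol from the transcript tables of both libraries and make up 10 of the 18497 annotated genes with a read. Bsg, Pltp and Slc2a1 are also known from other brain cells, so a bulk level of these is not a level in endothelium.

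Long-read RNA sequencing, in which a single read can cover a transcript from end to end, was done on hippocampus of female B6CASTF1/J mice, hybrids of C57BL/6J and CAST/EiJ, aged 2 months. The series has 1 group, with no treatment named, in 2 libraries, replicates 1 and 2, each made from 2 µg of RNA, so no conditions were compared. One label field gives the libraries different animal numbers and another gives the same, so a difference between these libraries may be technical. The p-values set that difference against counting error alone and measure no spread between libraries or animals. Tests below set replicate 2 against replicate 1. The libraries held 826596 and 745492 reads outside the spike-ins. Levels are CPM, reads per 1000000 of these. Each long read was counted once whatever its length, so levels were not divided by length, and how well each length was recovered was not measured. One read was 1.21 CPM in replicate 1 and 1.34 CPM in replicate 2. Neuron markers had a median of 1160 CPM, astrocyte markers 463, oligodendrocyte markers 378 and microglia markers 48.0. In such bulk tissue, fewer cells of a type and less RNA per cell cannot be told apart.

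All 10 genes had reads in both libraries, 1108 and 863 together. Their median level was 42.2 CPM, beside 19.8 CPM over the 14787 genes read in both libraries. The span was wide: the highest gene, Bsg, lay 101-fold above the lowest, Abcb1a, and Bsg alone took 61.3% and 62.2% of the reads. Of the 7 genes with the 20 reads together that the test required, 0 were called different between the libraries (two-sided exact binomial test, a change of 2-fold or more and a p under 0.05 after Benjamini-Hochberg adjustment), where 0.309% of all 9062 genes tested were called. At an unadjusted p under 0.05 there were 3 of these 7, against 7.42% of all genes tested. The 3 were Cldn5, Bsg and Slc2a1, all lower in replicate 2. By CPM, 6 of the 10 genes were lower and 4 higher in replicate 2.

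**Figure D1:**
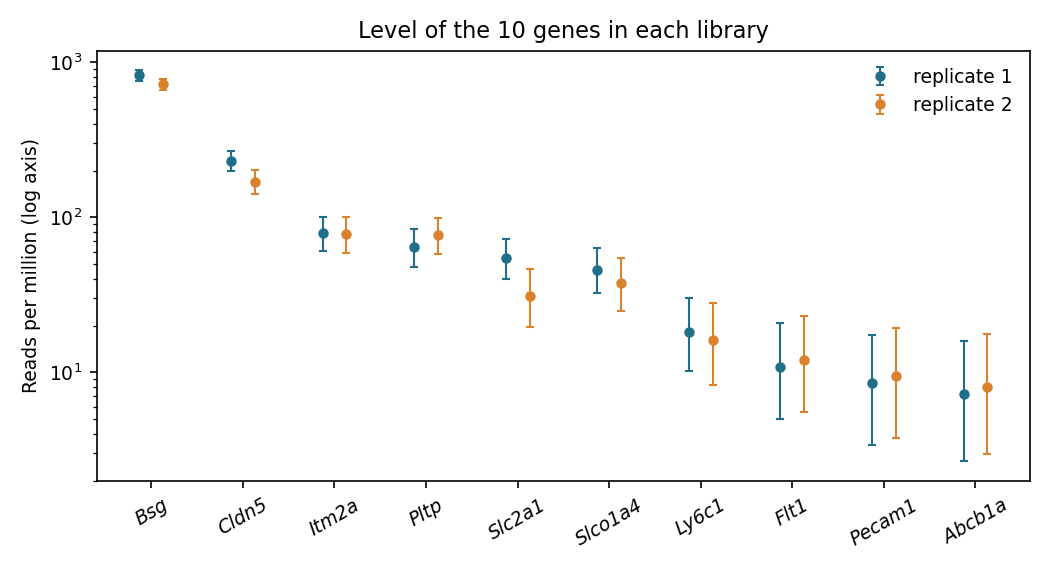
CPM (log axis) of each of the 10 genes in replicates 1 and 2, as points with exact 95% Clopper-Pearson intervals for counting error. Bsg stands at 821 and 720 CPM, Cldn5 next at 231 and 169 CPM, and the intervals of Flt1, Pecam1 and Abcb1a overlap one another at about 10 CPM.

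In order of mean level the genes ran Bsg, Cldn5, Itm2a, Pltp, Slc2a1, Slco1a4, Ly6c1, Flt1, Pecam1 and Abcb1a. The intervals of Bsg and Cldn5 did not overlap those of any other member in the same library. Among the others, neighbours in this order had overlapping intervals in both libraries, except Pltp and Slc2a1 in replicate 2 and Slco1a4 and Ly6c1 in replicate 1.

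By class, 85.6% and 87.1% of the members' reads were in annotated models. New combinations of annotated splice sites took 1.53% and 2.43%, chains using an unannotated site 6.32% and 5.45%, and incomplete splice matches, which hold only part of an annotated or longer chain, 5.78% and 4.17%. Genomic models, whose reads follow no splice chain of the gene, held 0.812% and 0.811%. These sums are mostly Bsg. Over 6038 genes with at least 20 reads in each library, the median gene had 71.1% annotated, 7.58% incomplete and 3.72% genomic reads.

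**Figure D2:**
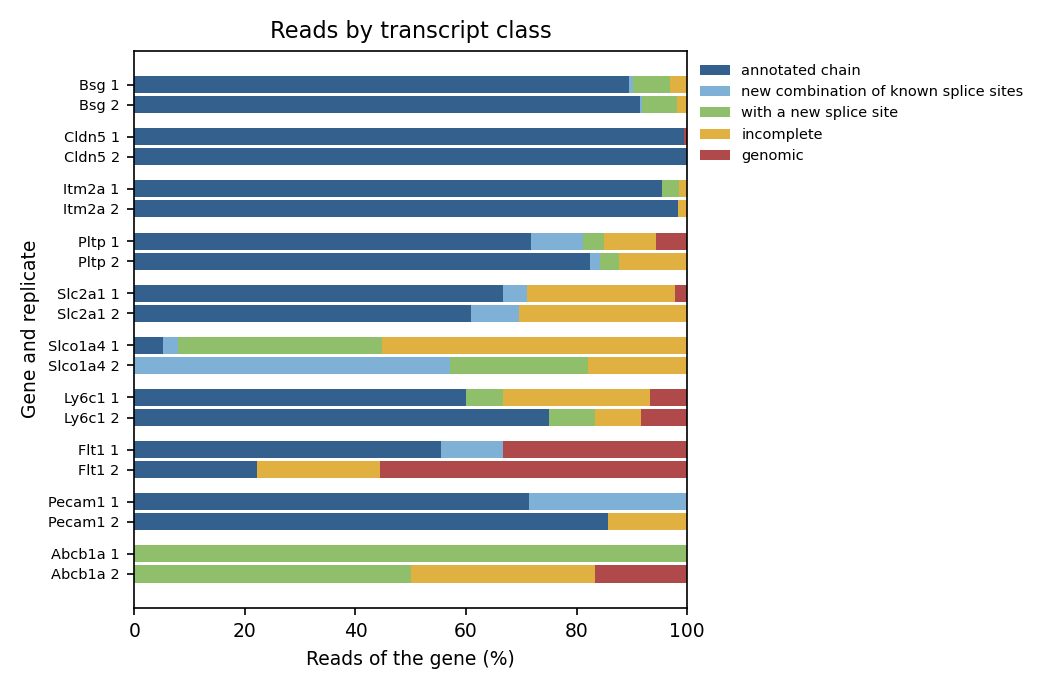
Share of each gene's reads (percent, horizontal axis) by transcript class, 1 bar for each gene and replicate. Annotated chains fill 99.5% and 100% of the Cldn5 bars, whereas Abcb1a has none and Slco1a4 has 5.26% and 0%.

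Of 6 members with 20 reads in each library, 0 were called for genomic share, where 4.99% of 6038 genes were. The test was Fisher's exact test, two-sided, at an adjusted p under 0.05. At an unadjusted p under 0.05 it was 0 of 6 too, beside 10.4% of all. Bsg, Itm2a and Slco1a4 had 0 genomic reads in both libraries, Cldn5 and Slc2a1 1 and 0 each, and Pltp 3 and 0. With so few, none of the 6 could reach an unadjusted p under 0.05, so these counts do not measure stability. The share of the leading isoform was tested in the 4 members with 20 full-splice reads in each library. Of these, 0 were called, against 0.208% of 4819 genes, and 0 passed at an unadjusted p under 0.05, beside 3.65%. The 4 were Bsg, Cldn5, Itm2a and Pltp. Cldn5 has 1 exon and its full-splice reads all lay in 1 model, so its test could not call a change. Itm2a, with 62 of 64 and 57 of 57 reads in the leading isoform, left too few others to reach that p.

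Cldn5 encodes claudin-5, the main claudin of brain endothelial tight junctions. It is a gene of 1 exon, at chr16:18776847-18778262 on the plus strand. It had 191 reads in replicate 1 and 126 in replicate 2, 231 and 169 CPM (200.04 ± 43.9, SD, n = 2). Replicate 2 was thus at 0.731 of replicate 1, with an exact binomial p of 0.00686 and an adjusted p of 0.362. The level exceeded 94.8% of the genes read in both libraries. All but 1 read, a genomic one in replicate 1, were in the annotated model of 1416 bases. With full-splice models alone the mean was 305 CPM, taken over the reads kept.

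Pecam1 encodes CD31, an adhesion protein at endothelial cell borders that carries extracellular immunoglobulin domains and a cytoplasmic tail with inhibitory tyrosine motifs. It had 7 reads in each library, 8.47 and 9.39 CPM (8.93 ± 0.651, SD, n = 2), too few for the test. Those reads spread over several forms that differ in short coding exons of the tail. Pecam1-204, with both a 57-base and a 23-base exon, had 3 reads in each library. Pecam1-202, with the 57-base exon alone, had 1 and 1, and Pecam1-203, with neither, had 1 and 2. The exons lie at chr11:106671742-106671798 and chr11:106662002-106662024, on the minus strand. The 3 forms are printed because they differ only there in this window, and capitals mark the alternative bases (GENCODE M21, mm10).
Pecam1-204: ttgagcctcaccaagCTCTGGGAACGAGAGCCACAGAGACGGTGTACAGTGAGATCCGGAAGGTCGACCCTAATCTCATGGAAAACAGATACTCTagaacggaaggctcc
Pecam1-202: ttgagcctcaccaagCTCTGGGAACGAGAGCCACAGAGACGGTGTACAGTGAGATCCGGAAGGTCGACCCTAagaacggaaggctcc
Pecam1-203: ttgagcctcaccaagagaacggaaggctcc

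The other full-length Pecam1 reads were 2 in replicate 1, each in a model of its own. Both lacked the 303-base coding exon at chr11:106697052-106697354. With so few reads, the order of the forms was not resolved in either library.

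Slc2a1 encodes GLUT1, the glucose carrier of the barrier, which is also found in glia. It had 45 and 23 reads, 54.4 and 30.9 CPM (42.6 ± 16.7, SD, n = 2). Replicate 2 stood at 0.567 of replicate 1, the widest ratio among the members tested, and the exact binomial p of 0.0284 became 0.575 after adjustment. Slc2a1-201, of 10 exons, held 30 of 32 and 14 of 16 full-splice reads. A further 12 and 7 reads, 26.7% and 30.4% of the gene's reads, were incomplete. All of these kept the end of the gene and lacked its beginning. They began at different exons: 4 and 1 reads kept the last 8 exons, 2 and 2 the last 7, 1 and 1 the last 6, and 2 and 2 the last 5, while 1 read in replicate 1 kept the last 2. The last exon alone was in 2 and 1. An 8-exon combination of annotated sites, which starts at the annotated first base, had 1 read in each library.

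Slco1a4 encodes OATP1A4, an organic anion transporter of the barrier. It had 38 and 28 reads, 46.0 and 37.6 CPM (41.8 ± 5.95, SD, n = 2; adjusted p 0.976, exact binomial test). Almost none of these reads matched an annotated spliced transcript: 1 of 37 spliced reads did in replicate 1 and 0 of 28 in replicate 2. The leading chain, of 16 exons, had 19 and 16 reads. It skips the 114-base noncoding exon of Slco1a4-203 at chr6:141852205-141852318 (minus strand). Every one of its introns is annotated, so the combination alone is unannotated. The junctions, both annotated, are shown because they separate the leading chain from Slco1a4-203. Capitals mark the exon that both enter (GENCODE M21, mm10).
Slco1a4 leading chain: atagaaactaaccagAAGTAAGACTGTTCA
Slco1a4-203: aacaactcccattagAAGTAAGACTGTTCA

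A second 16-exon chain, with 12 and 6 reads, differs from the leading one by entering the same exon 4 bases earlier, at a splice site that is not annotated. Slco1a4-203 itself had 1 and 0 reads. The exon skipped and the 4 bases lie before the coding sequence, whose first bases are in the exon printed in capitals. Of full-splice and incomplete reads together, the leading chain thus held 19 of 38 and 16 of 28, and the second 31.6% and 21.4%.

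The class given to the leading chain differed between the libraries. It was an incomplete splice match in replicate 1 and a new combination in replicate 2. In replicate 1 an 18-exon model of 1 read, which reaches beyond the gene's end, contained the whole chain. Among full-splice reads alone, the leading chain therefore held 0% in replicate 1 and 69.6% in replicate 2, and the second 70.6% and 26.1%. Such a switch was uncommon: of 10941 spliced chains with at least 5 reads in each library, 147 differed in class, and in 56 of them an incomplete match stood against a full-splice class. Of 2706 unannotated or incomplete chains, 5.43% differed.

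**Figure D3:**
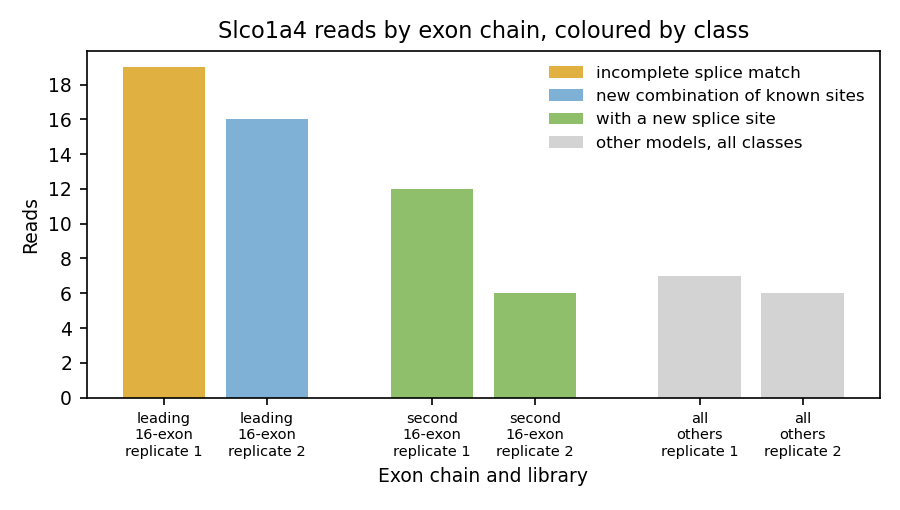
Reads (vertical axis) of the leading and second 16-exon chains of Slco1a4 and of all its other models in each library, coloured by class. The leading chain has 19 and 16 reads under 2 different classes, and the second 12 and 6 under 1 class.

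Abcb1a encodes a P-glycoprotein, the drug efflux pump of the barrier. It had 6 reads in each library, 7.26 and 8.05 CPM (7.65 ± 0.558, SD, n = 2). Every spliced full-length read began far upstream of the GENCODE gene. A model of 30 exons, against 28 in Abcb1a-201, had 6 reads in replicate 1 and 3 in replicate 2. It started at base 8567100 of chromosome 5 (plus strand, mm10) in replicate 1 and 8567119 in replicate 2, that is 92977 and 92958 bases before the GENCODE start at 8660077. RefSeq has a start for the gene at 8567091, and the model began 9 bases after it in replicate 1 and 28 in replicate 2.

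The 2 added exons were 130 or 111 bases and 45 bases long. They lie inside Rundc3b, a gene on the opposite strand, and overlap none of its exons. The third exon of the model begins 4 bases into the first GENCODE exon. The annotated coding sequence starts later, at 8660668 in the second GENCODE exon, so the added exons lie before it. Replicate 2 also had an incomplete read from the second added exon on, a second incomplete read of 16 exons and 1 genomic read.

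The sequence around the RefSeq start, chr5:8566841-8567120 in GRCm38.p6, is shown because the 30-exon model begins in it in both libraries. It runs from 250 bases before that start to 30 bases from it on, with capitals from the first base of the replicate 1 model.
Abcb1a promoter: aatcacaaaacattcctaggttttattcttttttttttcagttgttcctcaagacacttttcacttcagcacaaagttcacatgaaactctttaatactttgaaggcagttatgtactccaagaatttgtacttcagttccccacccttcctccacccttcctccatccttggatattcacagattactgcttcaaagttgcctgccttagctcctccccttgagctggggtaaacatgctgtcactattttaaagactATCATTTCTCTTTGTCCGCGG

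Of 9179 genes with at least 5 spliced reads in each library, 10 (0.109%), Abcb1a among them, had over 50% of spliced reads starting at least 10000 bases upstream of the gene in both. A lack of any annotated spliced read was less rare, with 313 of the 9179 genes (3.41%). The close relative Abcb1b had 3 and 8 reads, and Abcb4 had 5 and 9. Since the rule for assigning reads shared by such paralogs was not given in the sources used here, their levels are uncertain.

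**Figure D4:**
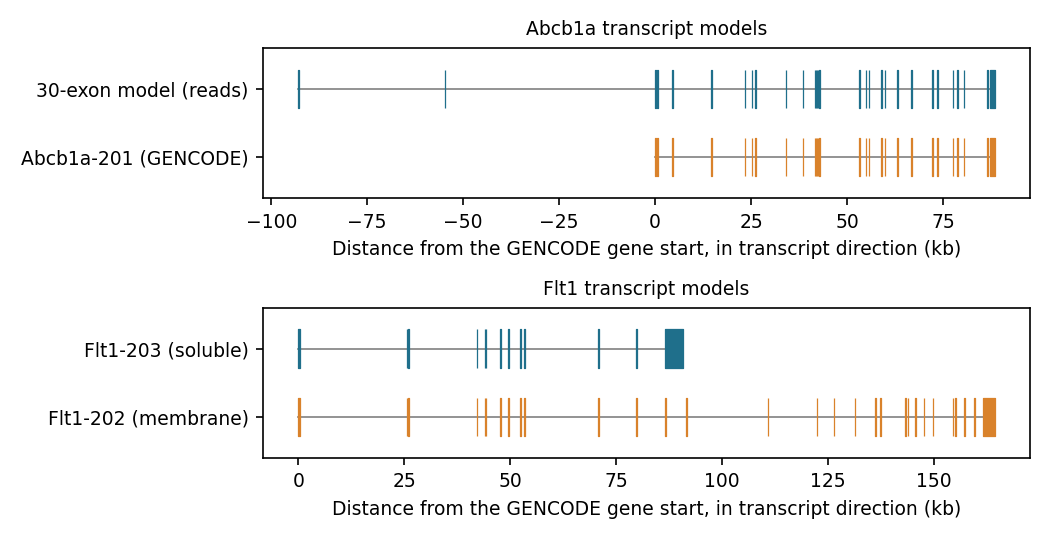
Exons (bars) along the distance in kb from the GENCODE gene start, for Abcb1a as read and as annotated and for the soluble and membrane forms of Flt1. The Abcb1a model as read has 2 exons before the annotated start, the first 92977 bases away, and Flt1-203 ends before the exons that finish Flt1-202.

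Promoter windows of 300 bases in the RefSeq table (GRCm38.p6) matched 8 of the 10 genes, with 9 entries. A gene was counted if any of its entries held the letters, whereas the shares of all promoters are by entry. AGGAAG, a core bound by ETS factors, was found on either strand in 5 of the 8 (Abcb1a, Flt1, Itm2a, Ly6c1 and Slco1a4), beside 35.4% of all 32851 promoters. GGGCGG, the GC box, was in 5 of 8 beside 35.7%, and TATAAA in 4 of 8 beside 13.6%. AACAAT, a core bound by SOX factors, was in Slco1a4 alone, beside 10.7%. A match describes letters only. The first 280 bases of the Slco1a4 window, chr6:141856191-141856470 on the minus strand, are printed because the stretch holds the ETS and SOX letters and the leading models start in it, 21 bases after the RefSeq start. Capitals run from the first base of the read models. That base, 141856199, is also the GENCODE start of the gene, so the 21 bases separate 2 annotations. Where single reads began was not measured.
Slco1a4 promoter: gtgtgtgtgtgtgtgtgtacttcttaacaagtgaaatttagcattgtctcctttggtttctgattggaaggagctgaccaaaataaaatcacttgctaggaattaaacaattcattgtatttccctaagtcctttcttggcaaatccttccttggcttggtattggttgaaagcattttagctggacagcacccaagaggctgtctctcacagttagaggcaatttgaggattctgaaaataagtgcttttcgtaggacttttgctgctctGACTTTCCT

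Bsg encodes basigin, an immunoglobulin-family membrane protein that escorts monocarboxylate transporters to the cell surface. It had 679 and 537 reads, 821 and 720 CPM (771 ± 71.5, SD, n = 2), above 99.4% of genes read in both libraries. Replicate 2 stood at 0.877 of replicate 1 (exact binomial p 0.0233, adjusted p 0.550). Bsg-205, of 7 exons, held 601 of 658 and 483 of 527 full-splice reads, 91.3% and 91.7% (Fisher's exact test, adjusted p 1). In all, 24 full-splice chains were seen, 7 of them in both libraries and 14 with a single read.

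The alternative start of Bsg was rare. The first exon of Bsg-205 opened 649 and 521 full-splice reads, 98.6% and 98.9%. The first exon of Bsg-202, at chr10:79709598-79709827, opened 7 and 6 reads, 1.06% (95% interval 0.429 to 2.18%) and 1.14% (0.419 to 2.46%). Bsg-201 includes an extra exon of 348 coding bases at chr10:79708697-79709044, which encodes the additional immunoglobulin domain of the form known from retina. Of full-splice reads, 1 in replicate 2 held the whole exon, 0.190%, and 1 in replicate 1 entered it late and held 154 of its bases, 0.152%. Another 2 full-splice reads in replicate 1, and 0 in replicate 2, began inside it, and the exact interval of the latter reaches 0.698%. An incomplete read of replicate 2 also began there, at the exon's first base. Its model kept 2371 bases, and that of 1 of the 2 reads from replicate 1 kept 2512. Neither of these models has a splice at the end of the extra exon. The junctions out of exon 1 show the choice, with capitals for the exon entered (GENCODE M21, mm10, plus strand).
Bsg-205 exons 1 and 2: gcgcctgcgcggcggCGGGCACCATCCAAA
Bsg-201 exons 1 and 2: gcgcctgcgcggcggCTGGTTTCCTCAAGG

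A more frequent change lay near the end of the coding sequence, at a 25-base exon (chr10:79711256-79711280). The splice from Bsg-205 exon 5 into this exon was absent from 41 of 658 full-splice reads in replicate 1 and 30 of 527 in replicate 2. These are 6.23% (4.51 to 8.36%) and 5.69% (3.87 to 8.03%). The leading chain without it had 32 and 22 reads. In it exon 5 joins directly to a site 28 bases before the last exon, chr10:79711466-79711493, and no annotated exon covers these bases. The model is 1264 bases long, against 1261 for Bsg-205. Whether the 25-base exon was placed correctly in alignment was not tested, and the 28 bases were not compared with its letters. Of other unannotated full-splice chains found in both libraries, 4 had 3 and 2, 3 and 1, 2 and 3, and 1 and 1 reads. The exon is printed in capitals between its neighbours.
Bsg-205 microexon: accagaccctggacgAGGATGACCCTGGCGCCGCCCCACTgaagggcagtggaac

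Of basigin's partners and relatives, 4 of 6 listed genes were read in both libraries. Slc16a1 (MCT1), the endothelial and glial lactate carrier, was at 31.5 and 29.5 CPM, and Slc16a7 (MCT2), the neuronal one, at 8.47 and 9.39 CPM. Slc16a3 (MCT4) had 2 and 0 reads and Slc16a8 (MCT3) 0 and 1. The basigin relatives Nptn and Emb stood at 43.7 ± 4.91 and 32.2 ± 5.74 CPM (SD, n = 2). Of the 3 with enough reads, 0 were called (exact binomial test), also at an unadjusted p under 0.05.

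Flt1 encodes VEGF receptor 1, a receptor of vascular growth factors that is also made as a soluble form, which lacks the membrane and kinase parts and binds the ligand in the extracellular space. It had 9 reads in each library, 10.9 and 12.1 CPM (11.5 ± 0.838, SD, n = 2). The soluble Flt1-203, of 13 exons, took 4 of the 6 full-splice reads in replicate 1, 66.7% (22.3 to 95.7%), and 2 of 2 in replicate 2, 100% (15.8 to 100%). Its last exon, chr5:147635159-147639533 on the minus strand, runs on into what is intron in the membrane form Flt1-202. Flt1-202 had 1 read, in replicate 1, and a 29-exon chain without a 132-base coding exon (chr5:147615129-147615260) had 1 more there. In replicate 2 the spliced reads of the membrane end were 2 incomplete ones. Counted with those, 2 spliced reads in each library held the membrane end, against 4 and 2 soluble reads, so no order of the forms was resolved. The sequences show where the forms part, and capitals mark the bases that only that form adds, up to the stop codon in Flt1-203 (GENCODE M21, mm10).
Flt1-202: aagttctcgttagagATTCGGAAGCGCCAC
Flt1-203: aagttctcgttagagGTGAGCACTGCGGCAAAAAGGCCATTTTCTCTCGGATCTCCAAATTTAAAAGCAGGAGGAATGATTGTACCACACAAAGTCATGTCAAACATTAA

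Genomic models held 3 of the 9 Flt1 reads in replicate 1 and 5 of 9 in replicate 2. In replicate 2, 4 of these sat in a model of 1 base at the 3′ end of the gene, which is the end of the membrane form. Such 1-base models held 0.821% and 0.735% of all reads outside the spike-ins, and their part in the Flt1 level was 4 of 9 reads in replicate 2 and 0 in replicate 1. Without genomic models the mean Flt1 level was 6.95 CPM, taken over the reads kept.

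Of the 8 listed genes of the VEGF system, 7 were read in both libraries. Among the ligands, Vegfb stood at 69.0 ± 8.63 CPM and Vegfa, made by astrocytes and neurons in brain, at 45.6 ± 5.67 (SD, n = 2), while Vegfc had 0 and 2 reads. Of the receptors, Kdr (VEGF receptor 2, the main signalling one) had 6 and 3 reads and Flt4 1 and 1. The co-receptors Nrp1 and Nrp2, which neurons also express, were higher at 70.7 ± 21.4 and 25.2 ± 5.35 CPM. Of the 4 genes with enough reads, 0 were called between libraries (exact binomial test), and 1 had an unadjusted p under 0.05.

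Ly6c1 encodes a surface protein anchored by a lipid, found on endothelium and on some leukocytes. It had 15 and 12 reads, 18.1 and 16.1 CPM (17.1 ± 1.45, SD, n = 2; adjusted p 1, exact binomial test). Ly6c1-201 held 8 of 10 and 9 of 10 full-splice reads, and an incomplete chain of 3 exons had 3 and 1. Its near-identical neighbour Ly6c2, a monocyte gene, had 0 reads in both libraries, and Ly6a had 10 and 2. As the rule for assigning reads shared by such neighbours was not given, the separate counts of Ly6c1 and Ly6c2 are uncertain. The leukocyte markers Cd3e, Ly6g and Ccr2 were at 0 in both, Ptprc had 2 and 0 reads and Itgam 1 and 3. A count of 0 allows up to 3.63 CPM in replicate 1 and 4.02 CPM in replicate 2.

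Itm2a encodes a single-pass membrane protein. Its ratio between libraries, 0.989, was the nearest to 1 among the 7 members tested, with 65 and 58 reads, 78.6 and 77.8 CPM (78.2 ± 0.590, SD, n = 2; adjusted p 1, exact binomial test). Itm2a-201 held 62 of 64 and 57 of 57 full-splice reads, and the other 2 were single reads with an unannotated splice site.

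Pltp encodes phospholipid transfer protein, which moves phospholipids between lipoproteins. It had 53 and 57 reads, 64.1 and 76.5 CPM (70.3 ± 8.73, SD, n = 2; adjusted p 0.959, exact binomial test). It was the 1 member among the 7 tested that stood higher in replicate 2. Pltp-201 held 37 of 45 and 44 of 50 full-splice reads, 82.2% and 88.0%, a difference within counting error (Fisher's exact test, p 0.564, adjusted p 1). Pltp-202 had 1 and 3 reads and an unannotated combination of annotated sites 3 and 1.

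Across the 10 genes, 88 spliced models were unannotated or incomplete, including a spliced genomic model of Cldn5. They were counted in each library, so a chain found in both enters once for each. Of these, 58 began at an annotated transcript start and 77 finished at an annotated end. Here and below, ends are those of the models, and how they were set was not given in the sources used here. Such matches therefore do not show where single reads began or ended. In TALON's subtypes, 22 and 3 of the members' incomplete reads were prefixes, which keep the first exons, 19 and 18 were suffixes, which keep the last, and 23 and 15 had no subtype. The 22 in replicate 1 include the 19 of the Slco1a4 leading chain. Of those with no subtype, 23 and 14 had a single exon and ended at an annotated transcript end. Over all genes, 7.37% and 8.13% of incomplete reads were prefixes and 68.5% and 68.6% suffixes. Among the members, prefixes were 34.4% and 8.33% and suffixes 29.7% and 50%.

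Other genes of the barrier and of vessels were taken from lists by function, and which cells their reads came from was not tested. Of 11 further junction genes, 9 were read in both libraries, 5 reached a mean of 10 CPM and the median was 8.80 CPM. Lsr, a protein of tricellular junctions, led with 49.6 and 49.6 CPM, then Esam (24.7 ± 2.70), Ocln, which encodes occludin (19.9 ± 4.15), and Cldn12 (19.0 ± 2.21; SD, n = 2 each). Cdh5, the cadherin of endothelial junctions, had 4 and 3 reads. Cldn5 thus stood above all 11 of these.

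All 17 further transport genes were read in both libraries. Their median was 30.5 CPM, and 12 reached 10 CPM. The amino acid carrier pair Slc3a2 and Slc7a5 stood at 145 ± 6.05 and 70.1 ± 3.31 CPM. Slco1c1, the thyroid hormone carrier of the Slco1a4 family, followed at 57.8 ± 2.08 and the reelin receptor gene Lrp8 at 57.4 ± 4.19 CPM (SD, n = 2 each). Slco1a4's closest relatives Slco1a1 and Slco1a6 had 0 reads, and Slco1a5 0 and 1.

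The same held for all 30 genes of endothelial signalling and identity, whose median was 11.01 CPM and of which 17 reached 10 CPM. Spock2 and Ly6e led at 202 ± 10.5 and 198 ± 9.96 CPM, then Ramp2, a receptor partner for adrenomedullin, at 44.3 ± 7.57 and Egfl7, a secreted vessel protein, at 44.0 ± 2.31 (SD, n = 2 each). The 12 mural genes, of the pericytes and muscle cells around vessels, had a median of 5.77 CPM. Rgs5 led them at 60.8 ± 8.93 CPM, with Vtn at 43.4 ± 3.16, Cspg4 at 11.9 ± 5.43 and Acta2 at 11.7 ± 6.25. Of 5 junction, 11 transport, 12 signalling and 2 mural genes with enough reads, 0 were called between the libraries (exact binomial test), and at an unadjusted p under 0.05 there were 0, 1, 1 and 0.

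**Figure D5:**
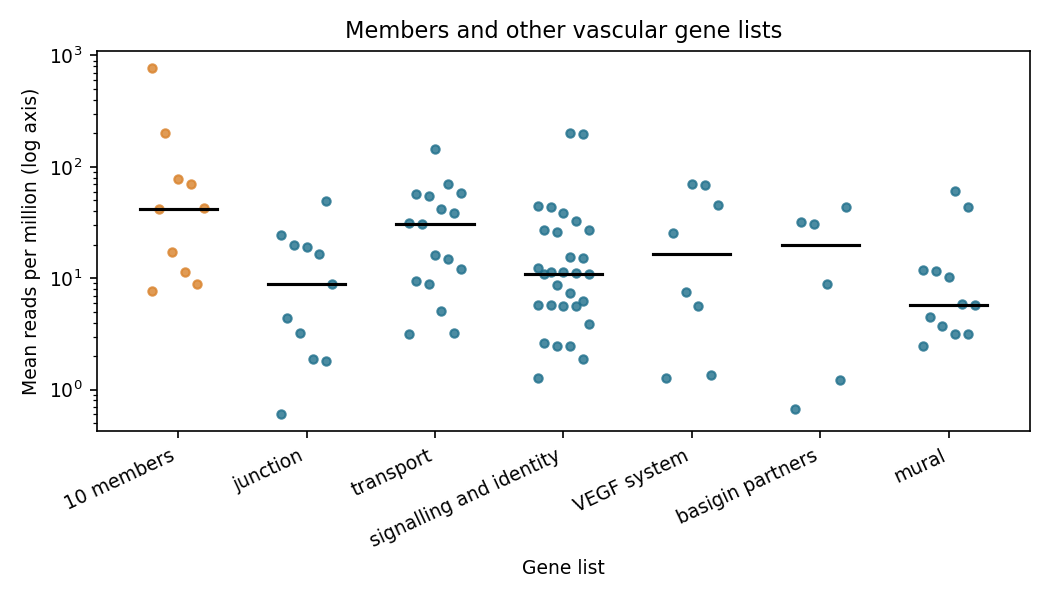
Mean CPM of 2 libraries (log axis) for the 10 members and for 6 other gene lists, 1 point a gene, with a black line at each list's median. The members' median is 42.2 CPM, and the lists' medians run from 5.77 CPM for mural genes to 30.5 CPM for transport genes.

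Markers of other cells were read as follows, by mean CPM. The leading neuron genes were Nrgn (1754), Snap25 (1651), Slc17a7 (1193) and Syp (1126), and the leading astrocyte genes Aldoc (1499), Slc1a3 (651), Gja1 (533) and Gfap (394). Oligodendrocyte genes included Mbp (1708), Cnp (378) and Mag (59.0), and microglia genes were led by Csf1r (80.1), C1qa (67.3), C1qc (51.8) and Tmem119 (44.2). No gene of these lists was called between the libraries (exact binomial test), and 2 neuron, 1 astrocyte, 1 oligodendrocyte and 0 microglia genes had an unadjusted p under 0.05.

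The 5 blood genes summed to 256 and 451 CPM. Hba-a2, an alpha globin, was called higher in replicate 2 with 24 and 65 reads (adjusted p 0.000491, exact binomial test), and all 4 tested had an unadjusted p under 0.05. The other globin genes had 128 and 171 reads (Hba-a1), 51 and 76 (Hbb-bs) and 7 and 18 (Hbb-bt). These are near-identical pairs, so their separate counts are uncertain. The 7 choroid plexus genes summed to 525 and 365 CPM, a difference carried by Ttr, with 271 and 131 reads (adjusted p 1.29e-06, exact binomial test), under the 2-fold limit. Enpp2 had 153 and 131 reads, Kl 8 and 6, Clic6 1 and 3, and Aqp1 and Otx2 were at 0 in both. The 5 genes of meninges and fibroblasts summed to 105 and 96.6 CPM. Of the 3 tested, 0 were called and 2 had an unadjusted p under 0.05, in opposite directions: Dcn with 41 and 16 reads and Pdgfra with 19 and 37. Col1a1 had 15 and 8 and Lum 10 and 8. Which cells the reads of these lists came from was not tested. The part of blood, choroid plexus, meninges and fibroblasts in the lower Cldn5, Bsg and Slc2a1 values of replicate 2 was not tested either.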

How the data were processed

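The authors deposited counts of long reads per transcript model, whole numbers without normalization, with structures made by TALON per the file headers, on mm10 with GENCODE M21 per the text files deposited beside them. The other deposited values are exon numbers, lengths and coordinates. The aligner and tool versions: not given in the sources used here.

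Counts were summed by gene identifier over all models of an annotated gene. Reads on antisense models carry genes of their own and were counted apart. Totals leave out 9644 and 6799 spike-in reads. Full-splice reads are annotated models plus unannotated ones of both kinds. A model was matched between libraries by its introns. Genes with 20 reads together were tested against the libraries' totals (exact binomial, two-sided), and shares with 20 reads in each library entered two-sided Fisher's exact tests, with Benjamini-Hochberg adjustment over all genes tested. These tests take reads as independent, which is not known without molecular identifiers, and intervals (exact Clopper-Pearson, 95%) and the limit of 3 counts for a count of 0 cover counting error only. The scripts were tested on simulated data. Promoters were RefSeq windows of GRCm38.p6, the assembly that mm10 names, and other sequences came from GENCODE transcripts. Coordinates are 1-based.

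The text names all 10 members, of each other list the 4 highest by mean CPM, genes at 0 in both libraries and called genes, and near relatives and isoforms of at least 10% of full-splice reads, soluble Flt1 forms and other Bsg starts. One gene that this rule takes is not reported here. Other genes and single models were named after their values were seen. The members and lists were chosen with earlier results of these data known. Alternatives varied the read minimum, the fold, the classes and the scaling (TMM, edgeR 4.0.16 in R 4.3.3) and left out each library. Python 3.11.15, pandas 2.3.3, numpy 2.4.6 and scipy 1.17.1 were used.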

Additional observations from a re-analysis of the deposited data

Results flagged for a closer look

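Antisense reads, which the gene levels leave out, were present over Flt1. There were 11 in replicate 1 and 6 in replicate 2, 13.3 and 8.05 CPM, above the 3 reads that a count of 0 allows. The leading model had 6 and 4 reads and a single unspliced stretch of 1897 and 1895 bases in intron 1, at chr5:147720744-147722640 in replicate 1, 3371 bases inside the gene from its start and clear of its exons. The other members had at most 2 antisense reads in a library. The strand is that of the deposited models, and the way it was assigned was not given in the sources used here.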

How the results depend on the processing

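No member was called between the libraries under any of the 6 alternatives to the level test. The number of genes called over the whole table was 28, and it moved to 52 with no minimum fold, to 59 without genomic models and to 14 with full-splice models alone. The number of genes called for isoform share was 10. It was 0 with annotated models alone and 208 when models were joined by transcript name, which by construction does not match unannotated models across libraries, and 0 members were called in either. The members' median level of 42.2 CPM ran from 41.8 to 46.1 CPM under other scalings and classes, and leaving out a library gave 34.2 to 50.2 CPM. With full-splice models alone, where CPM is taken over the reads kept, 8 of the 10 genes moved by more than their SD: Cldn5 rose from 200.04 to 305 CPM, Itm2a from 78.2 to 118 and Bsg from 771 to 1148. Flt1 fell from 11.5 to 8.90 CPM without models under 50 bases, an alternative chosen after seeing the data, and to 6.95 CPM without genomic models. With incomplete reads counted, the leading isoform's share fell from 90.6% to 64.5% for Slc2a1. Adding antisense reads to the levels was not run, because antisense models carry no annotated gene. No paired analysis was possible because there is 1 group. Flt1, Pecam1 and Abcb1a, with 6 to 9 reads in each library, were below the read minimum of the tests, and where a lower minimum admitted them to the level test they were not called.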
